A study of Mus musculus with 12 samples.

Results

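Apoa4, the gene of apolipoprotein A-IV, was 1 of 736 rows of a metabolic nCounter panel, and its row was read by name in all 12 libraries of a mouse study of diet and sphingosine kinase 2 (SphK2). nCounter probes count colour-coded barcodes bound to single RNA molecules without amplification, and the deposited values are a normalized signal, the unit of every level given here. The libraries came from total RNA of male C57BL6-NJ mice in 4 groups of 3: Western diet with sugar water and constitutive SphK2 knockout (Western-diet knockout), Western diet with sugar water and wild type, control diet with normal water and constitutive SphK2 knockout, and control diet with normal water and wild type. Feeding lasted 16 weeks per the growth protocol, while the labels give each library a different diet duration, from 16 to 27 weeks. The study title calls this an early MASH (metabolic dysfunction-associated steatohepatitis) model. By the labels the mice were 221, 217 and 252 days old in the Western-diet knockout group, 226, 226 and 232 in Western-diet wild type, 259, 253 and 250 in control-diet knockout and 231, 231 and 232 in control-diet wild type, in replicate order. With 16 weeks of feeding, the protocol's starting ages allow at most 238 days at its end, and 4 mice were labelled older. The labels name no tissue, and as the mice are called constitutive knockouts, no Cre or promoter limits the deletion to a cell type.

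Apoa4 was chosen by its signal in these 12 libraries, which was already known to lie far apart between genotypes on Western diet and between mice of 1 group. Its levels and group differences are therefore described here without a test. The other rows compared with it are the 110 further rows from A2m to Cat, the stretch of the table in which row names stood on plausible levels. After Cat, names and levels fit poorly, and those rows are counted without giving them a function.

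Apolipoprotein A-IV is a secreted protein of chylomicrons and high-density lipoprotein. In rodents both the small intestine and the liver make it, and in mouse liver its transcript is known to respond to fasting and to fat accumulation, with the transcription factor CREB3L3 among its regulators. The gene lies in a cluster of apolipoprotein genes: in the mouse assembly GRCm38.p6, Apoa1, Apoc3, Apoa4 and Apoa5 occupy 43.3 kb of chromosome 9, with Apoa4 at chr9:46240844-46243458. Apoa5 is no row of the table. Apoc2 and Apoe, which encode an activator of lipoprotein lipase and a ligand of remnant receptors, lie within 29.7 kb of each other on chromosome 7.

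The 250 bases before the transcription start are shown for Apoa4, for its cluster neighbour Apoa1, whose values took a different order of libraries, and for Apoc2 on another chromosome, whose values took nearly the same order. They are from RefSeq annotation on GRCm38.p6, written 5′ to 3′ on the gene's strand, and capitals mark matches to AGGTCA or AGTTCA on either strand, letters of the nuclear receptor half-site. Apoa4 is on the plus strand (chr9:46240594-46240843), Apoa1 on the plus strand (chr9:46228380-46228629) and Apoc2 on the minus strand (chr7:19677942-19678191).
Apoa4: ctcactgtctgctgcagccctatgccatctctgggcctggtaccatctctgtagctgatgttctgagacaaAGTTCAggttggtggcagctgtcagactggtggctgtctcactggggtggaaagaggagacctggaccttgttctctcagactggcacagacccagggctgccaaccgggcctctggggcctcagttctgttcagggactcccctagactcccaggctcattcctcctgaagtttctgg
Apoc2: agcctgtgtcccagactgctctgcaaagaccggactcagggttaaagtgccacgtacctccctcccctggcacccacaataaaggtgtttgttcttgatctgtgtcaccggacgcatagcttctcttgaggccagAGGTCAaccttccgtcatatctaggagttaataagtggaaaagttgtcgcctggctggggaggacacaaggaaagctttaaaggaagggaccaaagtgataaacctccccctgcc
Apoa1: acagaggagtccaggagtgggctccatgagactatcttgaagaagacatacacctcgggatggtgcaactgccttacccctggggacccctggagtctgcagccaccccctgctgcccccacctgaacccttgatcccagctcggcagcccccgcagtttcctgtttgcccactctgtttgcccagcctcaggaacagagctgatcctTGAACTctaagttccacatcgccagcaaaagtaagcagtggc
Each window held 1 match: AGTTCA began 179 bases before the start in Apoa4, AGGTCA 115 bases before it in Apoc2, and the reverse letters of AGTTCA 42 bases before it in Apoa1. Of 32851 windows of the same length, 11.8% held AGTTCA and 14.0% held AGGTCA on either strand. TGACGT, the core of the cAMP response element, and TATAAA, the TATA box, were searched on both strands too and matched none of the 3 windows, while 6.47% and 12.4% of all windows held them. These matches are letters in a window and not shown binding sites, and none sets Apoa4 apart from Apoa1.

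Recovered totals were 1702816 to 1924846 counts in 11 libraries and 1138914 in Western-diet wild-type replicate 3. Values are listed down to 21, which stands for anything below a library's next value, 21.1 to 23.7 in 11 libraries and 31.6 in that replicate 3. Per library 77 to 185 rows stood at 21. Of 16 hepatocyte genes listed as markers, 13 were rows from A2m to Cat, with mean signals of 549 (Agxt) to 89077 (Apoa2), and none was at 21 in all libraries. Their summed signal was 471178 to 571637 in Western-diet knockout, 484245 to 548234 in Western-diet wild-type, 471680 to 518698 in control-diet knockout and 527057 to 539140 in control-diet wild-type libraries. Of 12 immune-cell markers only 2 were rows of this stretch, among them Btk with a mean signal of 31.6, just above the lowest value. The summed signal of both was 42 to 111 in Western-diet knockout, 42 to 45.8 in Western-diet wild-type, 48.6 to 88.1 in control-diet knockout and 42 to 59.4 in control-diet wild-type libraries. Of the 7 enterocyte markers only Apob, shared with hepatocytes, was a row, so intestinal tissue was not checked by a marker of its own. No adipocyte, muscle or stellate-cell marker of the lists was present in it. In RNA from whole samples, fewer cells of a type and less RNA per cell cannot be told apart. No row carried the name Sphk2 or Sphk1, so the genotypes are those of the labels.

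Apoa4 took either a high or a low level, with nothing between them. On Western diet it had 39648, 19838 and 38929 in knockout replicates 1, 2 and 3, against 2254, 1564 and 2662 in wild-type replicates 1, 2 and 3. All 3 knockout libraries were high and all 3 wild-type libraries low, without overlap. On control diet it had 33899, 2685 and 25298 in knockout replicates 1, 2 and 3, against 2071, 27043 and 2208 in wild-type replicates 1, 2 and 3. Here the groups overlapped, because knockout replicate 2 was low like most wild-type mice and wild-type replicate 2 was high like most knockout mice. The high level was thus found in 5 of 6 knockout and 1 of 6 wild-type libraries, and the low level in 1 of 6 knockout and 5 of 6 wild-type libraries. Whether the 2 control-diet replicates 2 carry their right genotype labels was not tested, as no row is named Sphk2, and an exchange of these labels cannot be told apart from a difference between mice. Every tally by genotype or within groups here takes the labels as they stand.

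**Figure D1:**
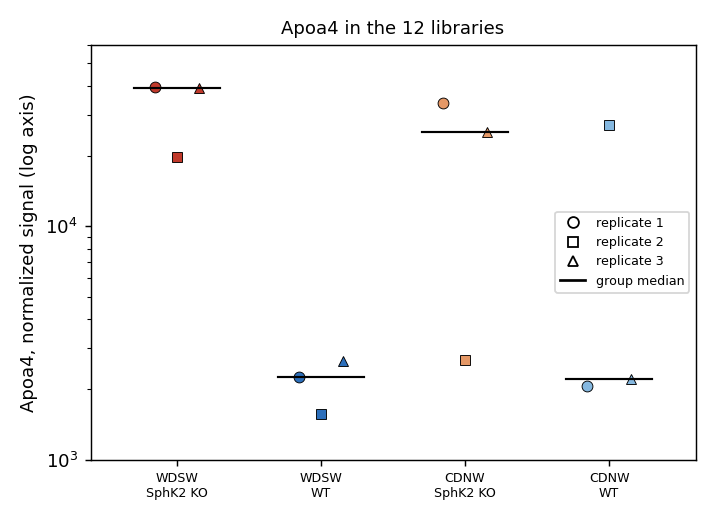
Normalized signal of Apoa4 on a log axis in each of the 12 libraries, by group, with the symbol giving the replicate and the line the group median. Libraries lie at 19838 or above or at 2685 or below, and the replicate 2 libraries of both control-diet groups lie on the other side from the rest of their group.

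The lowest high library, Western-diet knockout replicate 2, exceeded the highest low library, control-diet knockout replicate 2, 7.39-fold. Among the 6 high libraries the highest was 2.00 times the lowest, and among the 6 low ones 1.72 times. No other step between neighbours in the order of libraries was above 1.32-fold. In counts recovered from the signal, before the library's scaling factor, Apoa4 had 17579 to 40157 counts in the high libraries and 1639 to 2928 in the low ones, so the empty interval was 6.00-fold. Counting error was 0.499% to 2.47% of the value, far less than the step. Counting therefore does not limit these values, and their precision is that of 3 mice per group.

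Group means were 32805 ± 11236 in Western-diet knockout, 2160 ± 555 in Western-diet wild type, 20627 ± 16123 in control-diet knockout and 10441 ± 14378 in control-diet wild type (SD, n = 3 each). Ordered by mean, Western-diet knockout came first, then control-diet knockout, control-diet wild type and Western-diet wild type. Neighbours in that order did not differ beyond their spread, since the ranges of Western-diet and control-diet knockout overlapped, as did those of control-diet knockout and control-diet wild type, and those of Western-diet and control-diet wild type. Western-diet knockout and Western-diet wild type were separated, as were 23.5% of all 736 rows in this comparison, with 14.5% higher in knockout. On control diet 6.66% of rows were separated between the genotypes and Apoa4 was not among them. Separation of Apoa4 on Western diet was among the values for which it was chosen, so nothing is read from these shares.

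The difference of group means on the log2(value + 1) scale, knockout minus wild type, was 3.89 ± 1.17 on Western diet and 1.41 ± 1.17 on control diet (limma's standard error, pooled over the 4 groups). Western diet minus control diet was 1.24 ± 1.17 in knockout and -1.24 ± 1.17 in wild-type mice, and the difference of differences was 2.48 ± 1.66. These last values rest on single mice. Without control-diet knockout replicate 2 the diet difference in knockout mice was 0.10, the genotype difference on control diet 2.55 and the difference of differences 1.34. Without control-diet wild-type replicate 2 the diet difference in wild type was -0.02, the genotype difference on control diet 2.63 and the difference of differences 1.26. Without both of these libraries, which were picked for their values, the genotype difference on control diet was 3.77 and the difference of differences 0.12. With age as a covariate the genotype difference on control diet was 0.88. The genotype difference on Western diet was 3.67 to 4.22 when each library was left out in turn.

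The spread of Apoa4 was wide beside that of other rows, which belongs to what it was chosen for and is given as a description from which nothing is read. Among 81 rows from A2m to Cat that were above 21 in every library, the highest library was 25.3 times the lowest for Apoa4, 6.97 times for Bcl2a1a, the next in order, and 1.67 times for the median row. The widest step between neighbouring libraries was 7.39-fold for Apoa4, 1.86-fold for Bcl2a1a and 1.15-fold for the median row. Over all 538 rows above 21 throughout, Apoa4 also came first in both. Next was a row after Cat, named Serinc3, with a highest library 25.2 times the lowest and a widest step of 5.46-fold. The widest step of that row set Western-diet wild-type replicate 3, at 7835, apart from the other 11 libraries, at 42780 to 197169. Its 6 highest libraries, at 120439 to 197169, were the 6 highest in Apoa4, and the other 6 lay at 7835 to 77272. The same 6 highest libraries were found in 28 of the 457 rows after Cat above 21 throughout (6.13%). Its order matched that of Apoa4 in 48 of 66 pairs of libraries, and in 6 of the 12 pairs within a group.

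**Figure D2:**
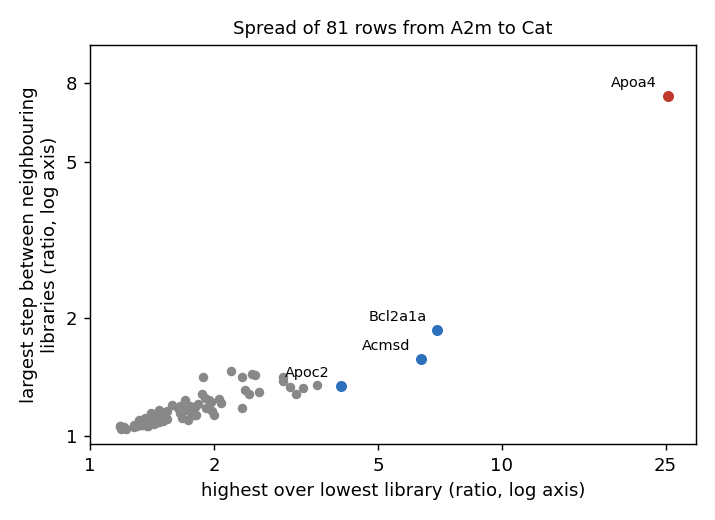
Ratio of the highest to the lowest library, against the largest ratio between libraries neighbouring in rank, on log axes, for 81 rows from A2m to Cat above 21 in all 12 libraries. Apoa4 stands at 25.3 and 7.39, beyond Bcl2a1a at 6.97 and 1.86.

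Neither labelled age nor labelled position split the libraries as Apoa4 did. The high libraries were of mice labelled 217 to 259 days old and the low ones 226 to 253 days, and the labelled positions were 2, 5, 7, 8, 11 and 12 for high and 1, 3, 4, 6, 9 and 10 for low libraries. On control diet the knockout mice were labelled 250 to 259 days old and the wild-type mice 231 to 232, so age and genotype went together there. Over the 66 pairs of libraries, the older mouse had the higher Apoa4 in 38, the later position in 42 and the larger recovered total in 32. Of the 12 pairs within a group, the older mouse had the higher Apoa4 in 7 and the lower in 3. The part of age in the Apoa4 values was not tested. Labelled diet durations ran in the same order as the positions, so the longer duration also had the higher Apoa4 in 42. The library with fewer rows at 21 had the higher Apoa4 in 48 of 66 pairs and in 7 of the 12 pairs within a group. The part of this number in the Apoa4 values was not tested. The summed hepatocyte markers were in the same order as Apoa4 in 21 of 66 pairs and in 2 of 12 within groups, with Agxt and Cat among them, and the summed immune markers in 46 and 7.

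Because Apoa4 fell into separate levels, other rows were compared with it by order and not by a correlation. For each row the pairs of libraries ordered in the same way as Apoa4 were counted, 66 in all. Of these, 12 joined libraries of the same group and so, with the labels as they stand, owed nothing to group means. Some pairs, also within the control-diet groups, joined a high and a low library, so the number still rests partly on the separate levels. A row was said to follow Apoa4 with at least 53 pairs in the same order, 9 of them within groups, and to run opposite with as many in the reverse order. Of the 110 other rows from A2m to Cat, 80 were above 21 in every library. They shared 11 to 60 pairs with Apoa4, with a median of 29. Of these 80, Cacng7, Apoc2 and Atox1 followed it (3.75%), and Agxt, Acat2, Apom and Cat ran opposite (5%). After Cat, 27 of 457 rows above 21 throughout followed it (5.91%) and 17 ran opposite (3.72%). The shares in the named stretch were thus near those of the other rows, and of all 537 rows 30 followed (5.59%) and 21 ran opposite (3.91%).

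**Figure D3:**
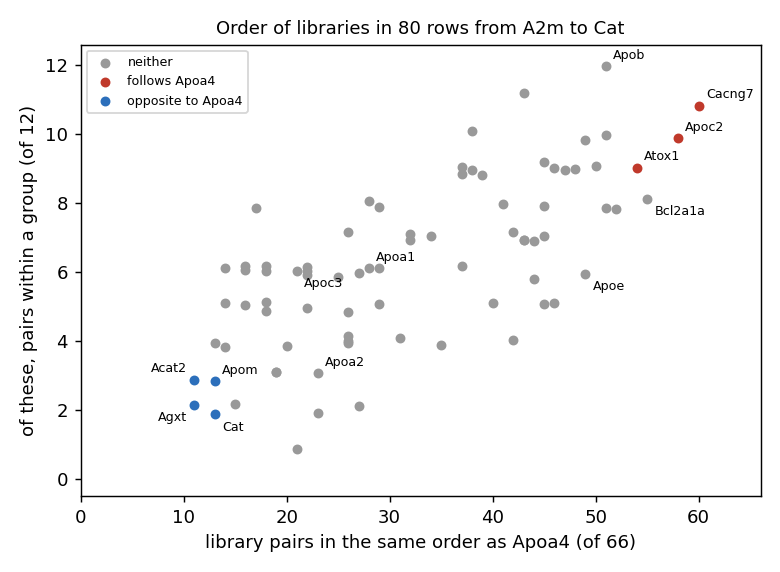
Pairs of libraries ordered as in Apoa4 (of 66, horizontal) against those of them within a group (of 12, vertical, points shifted slightly to part them), for 80 rows from A2m to Cat. Cacng7, Apoc2 and Atox1 lie at the upper right with 60, 58 and 54 pairs, and Agxt, Acat2, Apom and Cat at the lower left with 11 to 13.

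Apoc2 encodes apolipoprotein C-II, the cofactor that lipoprotein lipase needs to hydrolyse triglyceride. It had 9376, 6333 and 10925 in Western-diet knockout replicates 1, 2 and 3, against 4229, 2690 and 3384 in Western-diet wild-type replicates 1, 2 and 3. Control-diet values were 10320, 3653 and 8687 in knockout replicates, against 2875, 7900 and 4742 in wild-type replicates. The 6 libraries highest in Apoc2 were the 6 highest in Apoa4, including wild-type replicate 2 and without knockout replicate 2 on control diet. The order matched in 58 of 66 pairs and in 10 of 12 within groups, but the range was narrower, 4.06-fold against 25.3-fold.

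Cacng7, a gamma subunit of voltage-gated calcium channels best known from brain, matched in most pairs, 60 of 66 and 11 of 12 within groups. The level of Cacng7 was low, with 87.4, 64.3 and 103 in Western-diet knockout replicates 1, 2 and 3, against 38.7, 32.5 and 45.1 in Western-diet wild-type replicates. The control diet gave 91.2, 59.6 and 84.2 in knockout replicates, against 44.6, 82.1 and 49.3 in wild-type replicates. Again the 6 highest libraries were those of Apoa4, which was true of 4 of the 80 rows (5%) and of 28 of the 457 rows after Cat (6.13%). The remaining rows of these 4 were Acaca and Apoe.

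Atox1, a copper chaperone that hands copper to transport ATPases, varied only 1.47-fold over all libraries. It had 1695, 1526 and 1622 in Western-diet knockout replicates, against 1433, 1345 and 1156 in Western-diet wild-type replicates. On control diet it had 1651, 1581 and 1665 in knockout replicates, against 1396, 1552 and 1541 in wild-type replicates. Of its 6 highest libraries 5 were shared with Apoa4. The genotypes were separated on both diets in this row, while in Apoa4 they were separated on Western diet only. Of all 736 rows, 23.5% were separated on Western diet and 6.66% on control diet.

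Among the rows in the reverse order, Acat2 encodes the cytosolic acetyl-CoA acetyltransferase at the entry of cholesterol synthesis. It had 556, 604 and 610 in Western-diet knockout replicates 1, 2 and 3, against 1273, 1475 and 935 in Western-diet wild-type replicates. Control-diet values were 663, 1449 and 601 in knockout replicates, against 1510, 593 and 1635 in wild-type replicates. Its 6 lowest libraries, at 556 to 663, were the 6 highest in Apoa4, and the other 6 lay at 935 to 1635.

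Agxt, the alanine-glyoxylate aminotransferase that detoxifies glyoxylate in peroxisomes, had 369, 525 and 267 in Western-diet knockout replicates, against 700, 879 and 692 in Western-diet wild-type replicates. The control diet gave 283, 759 and 279 in knockout replicates, against 753, 396 and 686 in wild-type replicates. It was ordered opposite to Apoa4 in 55 of 66 pairs, like Acat2, and in 10 of 12 within groups, against 9 of 12 for Acat2. Apom, which binds sphingosine-1-phosphate, the product of sphingosine kinases, in high-density lipoprotein, was opposite in 53 pairs and in 9 within groups. It had 2039, 3108 and 1975 in control-diet knockout replicates, against 4080, 2005 and 2947 in the wild-type replicates of that diet. On Western diet the knockout range of 1899 to 2208 lay below the wild-type range of 4100 to 5805, where 23.5% of all 736 rows were separated in either direction.

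Acat2, Agxt and Apom each had their 6 lowest libraries where Apoa4 had its 6 highest, as did 7 of the 80 rows (8.75%) and 17 of the 457 rows after Cat (3.72%). The others of the 7 were Acmsd and Amdhd1, of tryptophan and histidine breakdown, Adh4, an alcohol dehydrogenase, and Asl of the urea cycle. Cat, the peroxisomal catalase that breaks down hydrogen peroxide, was opposite in 53 pairs and 10 within groups, but only 4 of its 6 lowest libraries were among the 6. Its range was 1.52-fold, and its Western-diet levels of 34830 to 49617 in knockout libraries overlapped the wild-type ones of 38945 to 52975.

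**Figure D4:**
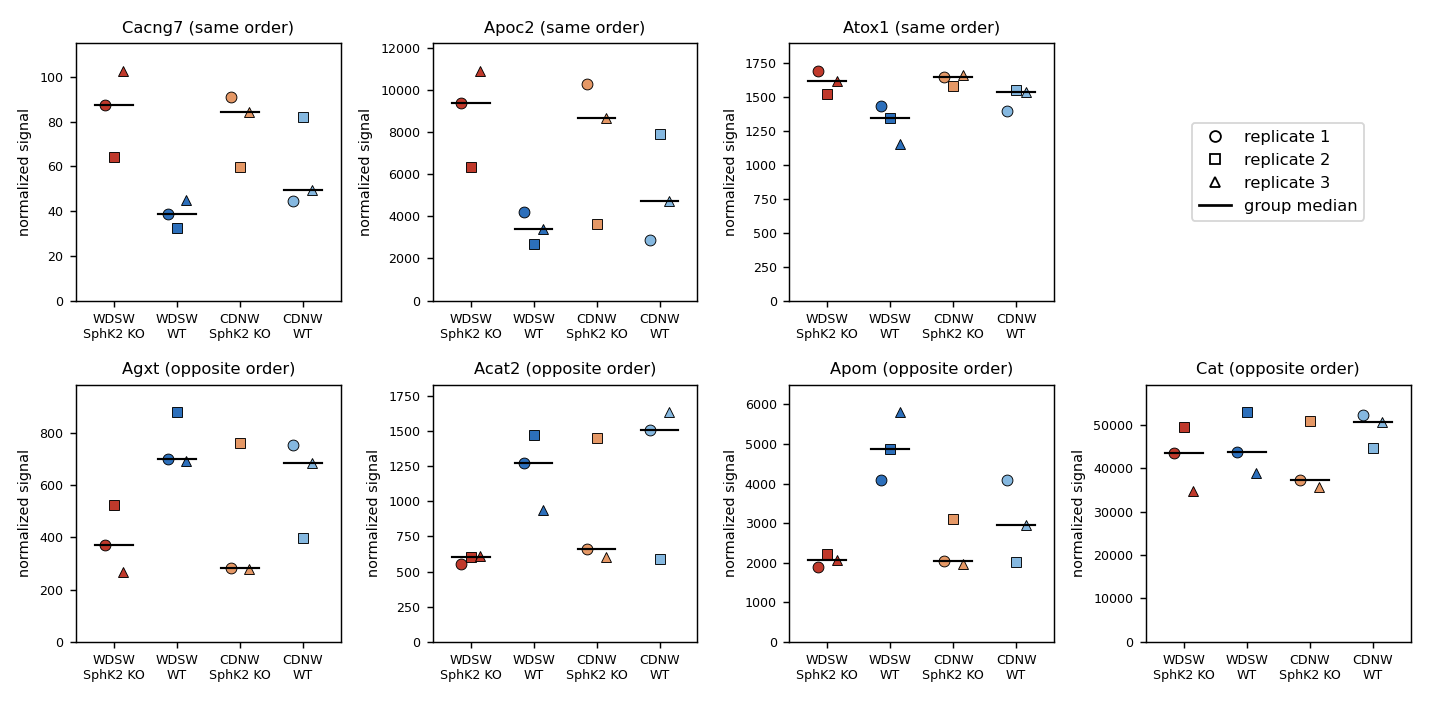
Normalized signal per library of the 3 rows that followed Apoa4 (top) and the 4 that ran opposite (bottom), by group, with the symbol giving the replicate and the line the group median; axes start at 0. In both control-diet groups replicate 2 (square) lies outside the range of the other replicates of its group in all 7 rows. The rows were selected partly by their order within these groups, so nothing is read from this.

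Some rows lay just outside these bounds. Bcl2a1a, an anti-apoptotic Bcl-2 family member of blood cells, was in the same order in 55 pairs but in 8 within groups, with 253, 74.5 and 432 in Western-diet knockout replicates, against 71.9, 67.8 and 64.7 in Western-diet wild-type replicates. On control diet it had 442, 77.0 and 370 in knockout replicates, against 64.5, 143 and 63.5 in wild-type replicates. Western-diet knockout replicate 2, the lowest of the high libraries in Apoa4, stood with the low libraries in this row. Acaca, the cytosolic acetyl-CoA carboxylase of fatty acid synthesis, had 51 pairs. Bhmt2, a homocysteine methyltransferase, was opposite in 53 pairs but in 8 within groups.

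Which rows met the bounds depended on the scaling. With each library centred on its median, 8 rows followed Apoa4 (Acaca, Ak1, Aldoa, Apoc2, Bcl2a1a, Cab39 and Cacng7 among them) and 2 ran opposite (Agxt and Apom). In recovered counts without the library factor, 6 followed and 3 ran opposite, and Atox1, Acat2 and Cat no longer met the bounds. Apoc2, Cacng7 and Agxt met them under all 3 scalings and without each library in turn, and so did no other row from A2m to Cat. Rows after Cat were not put through these alternatives. The share of all rows that would meet the bounds throughout is therefore unknown, and nothing is read from these 3. The number of followers was 7 without Western-diet wild-type replicate 3, and 5 when replicate 1 of either Western-diet group was left out. The number of opposite rows was 2 each when Western-diet knockout replicate 1 or 3 or control-diet wild-type replicate 1 or 2 was left out, and 1, Agxt, without Western-diet wild-type replicate 2.

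Apolipoproteins other than Apoa4 were examined as its pathway, and as its neighbours in the genome. Apoa1 and Apoc3, the main protein of high-density lipoprotein and an inhibitor of triglyceride clearance, begin within the same 43.3 kb as Apoa4 but were in the same order in only 28 and 21 of 66 pairs, and in 6 of 12 within groups each. Apoa1 had 79212, 68028 and 81166 in Western-diet knockout replicates, against 73985, 109866 and 93596 in Western-diet wild-type replicates. Control-diet values were 90720, 81868 and 97328 in knockout replicates, against 96995, 74445 and 60721 in wild-type replicates, with no step like that of Apoa4. Apoc3 had 60991, 81398 and 56471 in Western-diet knockout replicates, against 64832, 67472 and 72519 in Western-diet wild-type replicates. In control-diet knockout libraries it was 60357 to 60599, also in replicate 2, in which Apoa4 was low. Control-diet wild-type libraries had 65600 to 67622 of Apoc3, also in replicate 2, in which Apoa4 was high.

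Apob, the structural protein of chylomicrons and very-low-density lipoprotein, was the only row from A2m to Cat above 21 throughout that matched Apoa4 in all 12 pairs within groups, as did 1 of the 457 rows after Cat, though it varied only 1.21-fold and matched in 51 of 66 pairs in all. It had 29587, 28265 and 28375 in Western-diet knockout replicates, against 27159, 25044 and 29986 in Western-diet wild-type replicates. The control diet gave 29117, 24881 and 28253 in knockout replicates, against 25578, 27936 and 25781 in wild-type replicates. Apoe, neighbour of Apoc2, matched in 49 pairs but in 6 of 12 within groups, and Apoa2 of high-density lipoprotein in 23 and 3.

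**Figure D5:**
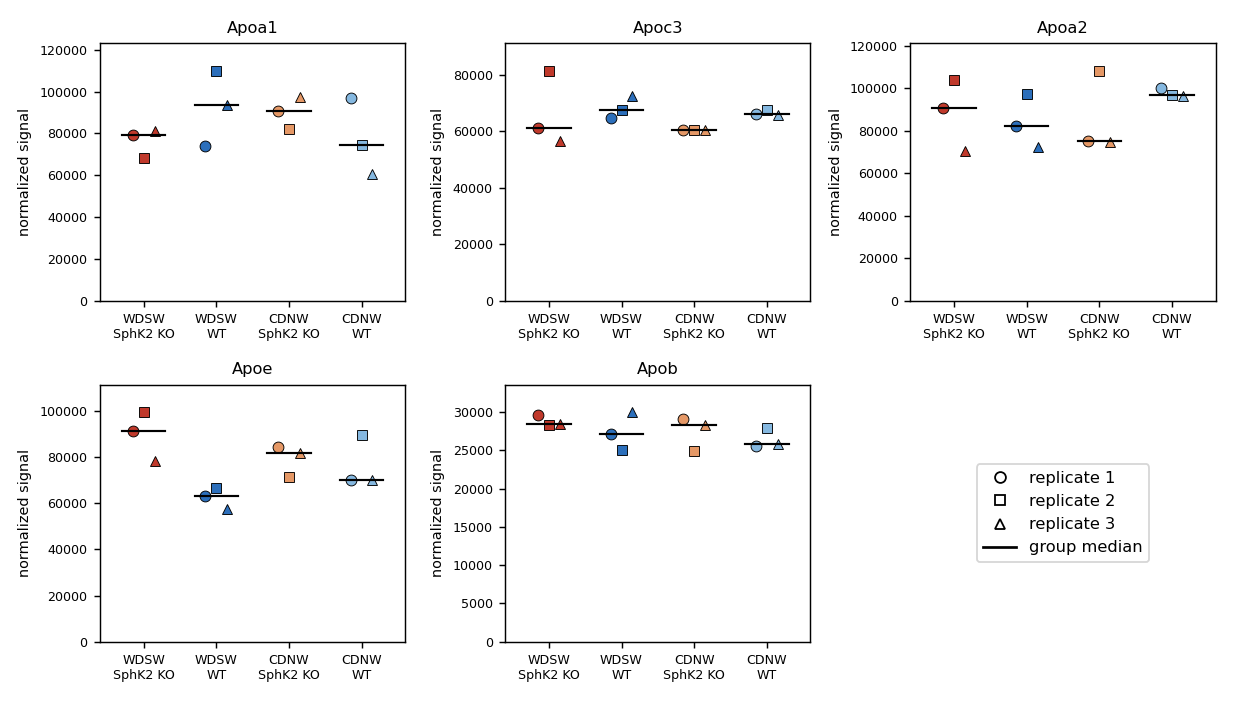
Normalized signal per library of Apoa1, Apoc3, Apoa2, Apoe and Apob by group, with the symbol giving the replicate and the line the group median; axes start at 0. The 2 levels of Apoa4 are not seen in its neighbours Apoa1 (60721 to 109866) and Apoc3 (56471 to 81398).

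Group differences of these other genes were tested with limma over all 736 rows, with Benjamini-Hochberg adjusted p-values. The genotype comparison on Western diet, the diet comparison in wild type and the difference of differences all contain the Western-diet wild-type libraries. Calls of 1 gene in several of these are therefore not independent. Knockout against wild type on Western diet called 1 row (0.136%), and the other comparisons none (0%). The called row lay after Cat and so was not Apoa4. Without replicate 2 of both control-diet groups, a choice made on values, limma called 37 rows between genotypes on Western diet and 26 on control diet. None of the 7 measured apolipoproteins passed in any comparison. On Western diet Apoc2 averaged 8878 ± 2336 in knockout mice, against 3434 ± 771 in wild-type mice (SD, n = 3 each), and its log2 fold change was 1.36 ± 0.47 (SE) with an adjusted p of 0.161 by limma. Apom had a log2 fold change of -1.25 ± 0.27 (limma, adjusted p = 0.0824) and Apoe one of 0.52 ± 0.12 (limma, adjusted p = 0.0861). Apoa1 had -0.27 ± 0.19, Apoc3 -0.06 ± 0.11, Apoa2 0.06 ± 0.19 and Apob 0.07 ± 0.08, with limma adjusted p of 0.444 to 0.923.

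At an unadjusted p of 0.05 by limma, Apoc2 and Apoe were higher and Apom lower in knockout than in wild-type mice on Western diet, 3 of the 7 apolipoproteins, while 154 of all 736 rows passed (20.9%), 12.4% higher and 8.56% lower. On control diet none of the 7 passed, and 35 of all rows did (4.76%). Between diets none passed in knockout mice, where 17 of all rows did (2.31%), and Apom was higher and Apoe lower on Western diet in wild-type mice, where 49 of all rows passed (6.66%; 2.99% higher and 3.67% lower). For the difference of differences, Apoe was higher and Apom lower, where 44 of all rows passed (5.98%; 2.99% in each direction). The median log2 fold change of the 7 was 0.06 between genotypes on Western diet and 0.05 on control diet, against 0.03 and 0.02 over all rows.

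A further 3 lists touch lipid metabolism and its regulation. Like the apolipoproteins, they were chosen with earlier results of these data known. Their counts and medians are therefore a description, from which nothing is read. None of their members from A2m to Cat passed limma's adjusted test in any comparison. Of 5 genes listed under fatty acid oxidation and ketones, 4 were higher in Western-diet knockout mice at an unadjusted limma p of 0.05. Among these 4 were Acadl (log2 fold change 0.42 ± 0.10), Acat1 (0.61 ± 0.17) and Acot12 (0.28 ± 0.08), against 12.4% of all rows higher. Acot12, an acetyl-CoA thioesterase, stood in the list without being an enzyme of either pathway. On control diet none of the 5 was called, against 4.76% of all rows in either direction. Between diets 3 of the 5 were lower on Western diet in wild-type mice (against 3.67% of all rows) and none was called in knockout mice (2.31%), and for the difference of differences 2 were higher (2.99%). The median over the 5 between genotypes on Western diet was 0.42, against 0.03 over all rows. These 3 named genes did not share the order of Apoa4 within groups: Acadl, Acat1 and Acot12 matched in 6, 5 and 5 of 12 pairs.

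Of 3 genes of acetyl-CoA use in lipid synthesis, Acaca was higher (0.70 ± 0.27) and Acat2 lower (-1.03 ± 0.44) in knockout mice on Western diet at an unadjusted p of 0.05, and Acacb, the acetyl-CoA carboxylase of the mitochondrial surface, had -0.68 ± 0.41. Of all rows 12.4% were higher and 8.56% lower there, and none of the 3 was called in the other comparisons. Of 7 stress and nutrient signalling genes, Akt2 (-0.27 ± 0.06), Atf4 (-0.57 ± 0.14), Bad (-0.28 ± 0.07) and Asns (-1.60 ± 0.46) were lower in knockout mice on Western diet at that threshold (against 8.56% of all rows), with a median over the 7 of -0.27. On control diet none was lower and Atf7 was higher (0.22 ± 0.08, against 4.76% of all rows in either direction), with a median of 0.07. Between diets Akt2, Atf4, Bad and Asns were higher on Western diet in wild-type mice (against 2.99% of all rows), and in knockout mice Akt2 was lower (against 2.31% in either direction). For the difference of differences Akt2, Atf4 and Bad were lower (against 2.99%). The calls for genotype on Western diet, diet in wild type and this difference share the same Western-diet wild-type libraries. Asns was at 21 in all 3 Western-diet knockout libraries, so its fold change rests on that limit. Of the 22 listed genes together, 0 passed the adjusted test on Western diet over the 12 libraries. The number was 5 when Western-diet wild-type replicate 2 was left out and 3 when control-diet wild-type replicate 2 was. Without control-diet replicates 2 of both genotypes 5 passed on Western and 1 on control diet, a choice of libraries made on their values.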

How the data were processed

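Total RNA was extracted with Trizol and read with barcoded probes of a metabolic panel (nCounter), per the labels. What the authors deposited is a normalized signal for each row and library. The software, housekeeping genes and background step are not given in the sources at hand. Values between 21 and 3000 were whole multiples of 1 step per library (100% within 0.1 of a whole number), which gave recovered counts. What lies behind a listed 21 is unknown, and a count model was therefore left out. All 736 row names were found as symbols in RefSeq's mouse gene table. Replicate numbers follow sample order and pair nothing. The labels do not speak of litters or cages, so p-values reflect only how far these mice differ. The labelled diet durations, 16 to 27 weeks with a different one for every library, entered no fit. They run in the same order as the labelled positions, so comparisons by position also hold for them.

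Group differences were fitted on log2(value + 1) with limma 3.58.1 under R 4.3.3 (lmFit, eBayes, 4 group means, 8 residual degrees of freedom, 5 contrasts) and adjusted over all 736 rows at 0.05. A row followed Apoa4 with at least 80% of the 66 pairs of libraries and 75% of the 12 pairs within groups in the same order, ties counting as neither. Named genes were the rows meeting these bounds, every measured apolipoprotein, and up to 4 members of other lists by smallest p on Western diet. Rows just outside the bounds, Serinc3, the motifs, and the comparison of the 6 highest libraries were added after values were seen, as were the alternatives of recovered counts and of leaving out both control-diet replicates 2. Other alternatives were median centring, another pseudocount, filters on low values, age as a covariate, an intensity trend, and leaving out each library. Both computations were tested on simulated data. Members and lists were chosen with earlier results of these data known. A list of lipid transporters and angiopoietin-like genes had no row from A2m to Cat. Values of 3 genes are not reported here. Python 3.11.15 was used for orders and motifs.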

Additional observations from a re-analysis of the deposited data

How the results depend on the processing

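The log2 difference of Apoa4 between genotypes on Western diet kept its sign in every alternative run (3.67 to 4.22 without each library in turn). On control diet it was 0.73 to 2.63 without each library, and 3.77 without replicate 2 of both control-diet groups. The diet difference was 0.10 to 1.92 in knockout mice and -1.87 to -0.02 in wild type without each library, and the difference of differences 1.26 to 3.16, or 0.12 without both of those replicates. With age as a covariate the genotype difference on control diet was 0.88 and the diet difference in knockout mice 1.80. Changes with age as a covariate, without single libraries, under other scalings and with log2(value + 10) were smaller than the pooled spread within groups. Without replicate 2 of both control-diet groups, the genotype difference on control diet and the difference of differences changed by more than that spread. The spread itself includes these libraries and was wider in the control-diet than in the Western-diet groups.

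Rows that followed Apoa4 numbered 3, with 2 to 7 without each library, 8 with median centring, 6 in recovered counts and 6 without both control-diet replicates 2. Rows in the reverse order numbered 4, with 1 to 4 without each library, 2 with median centring and 2 without both control-diet replicates 2. Raising all values to at least 32, or keeping low rows, changed neither count, and ranking by Pearson's r took 2 of the same 3 and 3 of the same 4 rows. The cause of these changes was not tested.

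Counts of rows called by limma on Western diet (1 of 736) were 0 to 21 without each library (21 without control-diet wild-type replicate 2), 0 among rows above 21 in at least 3 libraries, 0 with age as a covariate and 37 without both control-diet replicates 2. Between genotypes on control diet they were 0 to 3, and 26 without both. Between diets they were 0 in knockout mice without each library, 2 in knockout mice when age was a covariate, 0 to 1 in wild-type mice, and 0 to 1 for the difference of differences. Among the 22 listed genes they were 0 to 5 between genotypes on Western diet without each library, 5 without both replicates 2 there and 1 on control diet, and 0 otherwise. No paired analysis was possible because the labels give no replicate numbers.

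Depth does not limit Apoa4. For rows near 21, and for Western-diet wild-type replicate 3, in which 21 can stand for values up to 31.6, it limits what order can be read.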
